A study of Caenorhabditis elegans with 2 samples.

Results

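The data describe where tagged CTBP-1 was recovered at the transfer RNA (tRNA) genes of Caenorhabditis elegans. A tRNA peak is a peak of the series-level thresholded list whose summit lies inside, or within 200 bp of, a nuclear gene annotated as tRNA. This rule took 309 of the 2911 nuclear peaks, 10.6% (95% Wilson interval 9.55 to 11.8%), from a list of 2927 peaks in all. Their summits reached 332 of the 612 annotated nuclear tRNA genes.

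The method was ChIP-seq, the sequencing of DNA recovered with a protein by immunoprecipitation, on whole worms at the fourth larval stage (L4), 48 hours old and synchronised by starvation at the first larval stage after bleaching. The animals were of strain RW12203 and carried ctbp-1, on X, with TY1, EGFP and 3xFLAG tags inserted by CRISPR, st12203[ctbp-1::TY1::EGFP::3xFLAG]. The antibody recognised GFP. Both biological replicates, 2 in number, were of this strain, so there was no second genotype, stage or treatment to compare. The labels name possible controls, which were not analysed here, and whole animals do not show which tissue a signal came from.

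tRNA genes are short and are transcribed by RNA polymerase III from promoter elements inside the gene. The A box lies near the 5′ end of the transcribed sequence and the B box lies in the arm that forms the T loop. Both are bound by the factor TFIIIC, which places TFIIIB just upstream of the gene, and TFIIIB recruits the polymerase. CTBP-1 is the worm member of the C-terminal binding protein family, corepressors known mainly from genes transcribed by RNA polymerase II that are brought to DNA by other factors. The worm protein also carries a THAP domain, a kind of DNA-binding zinc finger.

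The genes of strong tRNA peaks on 5 chromosomes are shown first, because the anticodon and the B box used below can be read in them. Each is the tRNA gene of the strongest peak that could be shown on its chromosome, 5′ to 3′ on the gene's own strand, from the RefSeq genome of build WBcel235. The capitals mark the anticodon and then the B box, searched as GTTCNANNC.
C04A2.t1, tRNA-Leu, chrII:6853204-6853285, plus strand: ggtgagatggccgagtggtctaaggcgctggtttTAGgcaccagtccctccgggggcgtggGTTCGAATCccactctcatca
W09D6.t2, tRNA-Pro, chrIII:11066848-11066919, minus strand: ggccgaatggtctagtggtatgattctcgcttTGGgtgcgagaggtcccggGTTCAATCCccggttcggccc
C43G2.t1, tRNA-Leu, chrIV:6556818-6556901, plus strand: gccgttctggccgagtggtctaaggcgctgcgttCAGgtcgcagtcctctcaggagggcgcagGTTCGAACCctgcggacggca
T23F1.t1, tRNA-Lys, chrV:15465086-15465158, plus strand: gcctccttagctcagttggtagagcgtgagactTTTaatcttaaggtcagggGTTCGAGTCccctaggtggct
F15G9.t1, tRNA-Ala, chrX:9743589-9743660, plus strand: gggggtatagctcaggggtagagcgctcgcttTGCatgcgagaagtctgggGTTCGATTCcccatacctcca

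Signal values are the authors' own, given for each peak without a stated unit, and they describe and rank peaks within a list. The peak at C04A2.t1, inside an intron of C04A2.15, had a series-level signal of 164, with 68.2 in the ranked list of replicate 1 and 91.7 in that of replicate 2. At W09D6.t2, inside an intron of rsa-2, the values were 200, 104 and 92.6. At F15G9.t1, inside an intron of the hemicentin gene him-4, they were 316, 169 and 151. Values of the series-level list, which draws on both replicates, were about the sum of those of the replicate lists, so levels were compared only within a list.

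tRNA genes had summits more often than other annotated genes. A summit lay inside or within 200 bp of 332 of 612 tRNA genes, 54.2% (50.3 to 58.2%). The same distance rule reached 5.81% of all 46890 annotated nuclear genes and 7.29% of the 19973 protein-coding genes, although these are longer and so offer a larger target. Among other short genes the share was 22.5% for small nucleolar RNA genes (78 of 346), 18.6% for small nuclear RNA genes (24 of 129), 4.60% for microRNA genes (12 of 261) and 0.124% for piRNA genes (19 of 15363). No test was made of these shares, because neighbouring genes and peaks are not independent. The Wilson intervals here and below are 95% intervals that treat genes or peaks as independent and cover counting error only.

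Ranked peaks at tRNA genes passed the threshold more often than ranked peaks in general. The series-level ranked list holds peaks before the threshold on the irreproducible discovery rate (IDR), which compares the ranks of a peak in paired lists. Of the ranked peaks with a summit at a tRNA gene, 309 of 541 passed the threshold, 57.1% (52.9 to 61.2%), against 3.41% of all 85296 nuclear ranked peaks. Of the 280 tRNA genes without a thresholded summit, 180 had a ranked summit within 200 bp and 100 had none. The largest ranked signal at those 180 genes ran from 4.41 to 101, with a median of 46.1. The 3 genes with the largest were T28D6.t2 (tRNA-Val) at 101, T04D3.t2 (tRNA-Gly) at 80.0 and F57G8.t1 (tRNA-Asn) at 79.4. These values lie within the range of the thresholded tRNA peaks, so the signal alone did not decide which genes counted.

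tRNA genes on X had a summit somewhat more often than those on the autosomes as a whole, and the autosomes differed widely among themselves. On X, 166 of 276 tRNA genes had a summit, 60.1% (54.3 to 65.7%). On the autosomes it was 166 of 336, 49.4% (44.1 to 54.7%). The share was 64.1% on III (41 of 64), 59.6% on II (34 of 57), 54.5% on I (36 of 66), 42.3% on IV (30 of 71) and 32.1% on V (25 of 78). The intervals of X, III, II and I overlap one another, and the interval of V (22.7 to 43.0%) lies below that of X. Without V the autosomal share was 54.7%, and without IV and V it was 59.4%. Both chromosomes were left out after their values were seen. Leaving out the lowest chromosomes must raise the share, so these values only describe the chromosomes that remain.

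**Figure D1:**
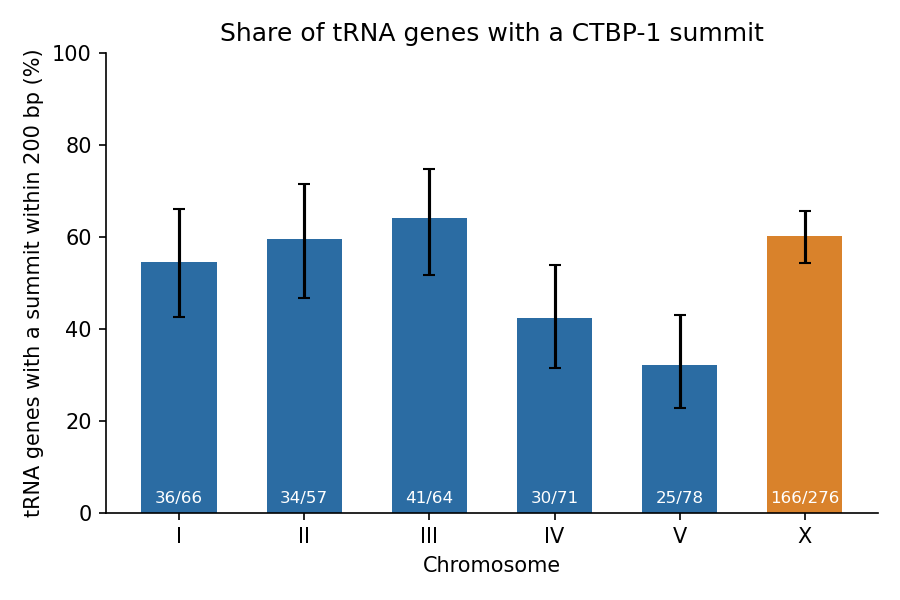
Bars give the percent of nuclear tRNA genes on each chromosome with a series-level thresholded summit inside or within 200 bp, error bars are 95% Wilson intervals, and the numbers in the bars are genes with a summit over all tRNA genes. X (orange, 60.1%) lies within the range of the autosomes (blue), which runs from 32.1% on V to 64.1% on III.

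Each replicate gave the same low place to V. In the thresholded list of replicate 1, summits reached 21.8% of the tRNA genes on V, 31.0% on IV and 40.2% on X. In the list of replicate 2 these shares were 20.5%, 38.0% and 42.4%. III was above X in both lists, at 40.6% and 46.9%. Within chromosomes, tRNA genes in the central of 3 equal parts had a summit in 128 of 217 cases, 59.0% (52.3 to 65.3%), and those in the outer parts in 204 of 395, 51.6% (46.7 to 56.5%).

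X held 148 of the 309 tRNA peaks, 47.9%, and 45.1% of the tRNA genes. Of the other nuclear peaks, 479 of 2602 were on X, 18.4%.

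The difference between X and the autosomes was clearer in the strongest peaks. The median signal of tRNA peaks was 103 (quartiles 80.2 and 140), against 84.0 for the other nuclear peaks. On X the tRNA peaks had a median of 106 (quartiles 83.6 and 157) and a maximum of 376. On the autosomes the median was 102 (quartiles 78.4 and 127) and the maximum was 224. Medians thus lay close together and the upper quartiles and maxima apart. In the ranked list of replicate 1 the maxima were 186 on X and 111 on the autosomes, and in that of replicate 2 they were 193 and 122. Of the 10 tRNA peaks of largest signal 9 were on X, and of the 20 largest 17. No tRNA peak was among the 20 strongest nuclear peaks of the list, 8 were among the 100 strongest, all of them on X, and 34 among the 300 strongest, 24 of them on X.

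The strongest tRNA peak lay between M02F4.t1, a tRNA-Gly gene, and M02F4.t2, a tRNA-Glu gene, at chrX:3036013-3036264. Its series-level signal of 376 ranked 28 among nuclear peaks, and the replicates gave 186 and 193. F41D9.t3, a tRNA-Asn gene in an intron of the sulfate permease family gene sulp-3, followed with 321, 185 and 139. The next were the tRNA-Ala pair F15G9.t1 and F15G9.t2 at 316 and the tRNA-Pro pair F46G11.t2 and F46G11.t1 at 313. W03G11.t1 (tRNA-Lys) had 293, the tRNA-Ser pair C53C7.t1 and C53C7.t2 had 285, and C04A11.t1 (tRNA-Leu), whose sequence occurs once in the genome, had 265. C33G3.t2 (tRNA-Lys) had 259 and R11.t1 (tRNA-Tyr) 242. All 10 of the strongest were in the thresholded lists of both replicates, and among them the log2 ratio of replicate 2 to replicate 1 ran from -0.41 at F41D9.t3 to 0.41 at W03G11.t1. Of these 10 peaks, 4 had tRNA genes of a pair in reach.

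The tenth was the strongest autosomal tRNA peak, at F47G6.t1 (tRNA-Arg) on I, with 224 in the series-level list. The strongest on the other autosomes were at F52C9.t1 (tRNA-Thr) on III with 221, T23F1.t1 (tRNA-Lys) on V with 218, T21B4.t1 (tRNA-Ile) on II with 196 and C43G2.t1 (tRNA-Leu) on IV with 195. These 5 differed by little, so the low share of genes on V did not go with a weak strongest peak there.

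Replicate signals could be set side by side for most tRNA peaks. A ranked summit lay within 100 bp of the series-level summit in both replicates for 282 of 309 tRNA peaks, 91.3%, and for 86.8% of the other nuclear peaks. Over these 282 peaks the Spearman correlation of the replicate signals was 0.698 and the Pearson correlation of their log2 values was 0.732. For the 2258 other peaks they were 0.637 and 0.705. These are descriptions, since the peaks of a replicate share a library. The median log2 ratio of replicate 2 to replicate 1 was -0.01 with an SD of 0.48 over tRNA peaks. The largest differences were at F22F1.t3 (tRNA-Asp), with 46.7 in replicate 1 and 11.5 in replicate 2, at Y116F11A.t1 (tRNA-Asn), with 52.2 and 19.9, and at E03E2.t3 (tRNA-Lys), with 18.7 and 48.8. The series-level peak at F22F1.t3 is shared with the neighbouring gene F22F1.t2, where replicate 2 had a ranked summit of 30.6 in reach.

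**Figure D2:**
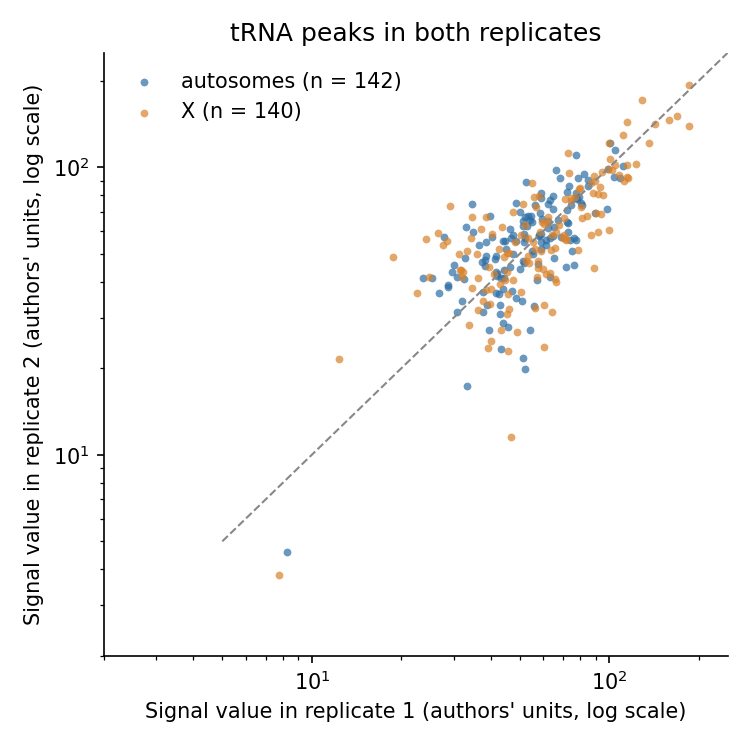
Each point is 1 tRNA peak with a ranked summit within 100 bp in both replicates, the axes give the authors' signal value in replicate 1 and replicate 2 on log scales, and the dashed line marks equal values. Points on X (140) and on the autosomes (142) follow the same line, and the points above 122 in either replicate are all on X.

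Stricter agreement, an overlap with a thresholded peak in each replicate's own list, was less common. It held for 158 of 309 tRNA peaks, 51.1% (45.6 to 56.7%), against 36.0% of all 2911 nuclear peaks and 34.2% of those not at tRNA genes. A further 39 tRNA peaks overlapped a thresholded peak of replicate 1 only and 51 of replicate 2 only. The remaining 61, 19.7%, overlapped none in either list, against 37.5% of the other peaks. On X the share in both was 54.7% and on the autosomes 47.8%, with overlapping intervals. The lists of the replicates alone held 194 and 221 peaks at tRNA genes.

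A small class of weak peaks stood apart. All 18 tRNA peaks with a signal under 40 overlapped a stronger peak of the same list, and their summits lay 199 to 276 bp from that of the stronger peak. Such shoulder peaks had a median signal of 11.7. The 3 weakest, near F28F8.t2 (tRNA-His) at 3.36, F22F1.t3 (tRNA-Asp) at 2.83 and C05G6.t1 (tRNA-Val) at 2.48, were all shoulders. Without the 18 the smallest signal of a tRNA peak was 53.1 and the median 107. Shoulder peaks were 7.23% of the other nuclear peaks and 5.83% of the tRNA peaks.

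Most summits lay within 50 bp of the 5′ end of the nearest tRNA gene, on either side, 238 of 309 (77.0%). Of all 309 tRNA peaks, 199 had the summit inside the nearest tRNA gene (64.4%), 72 upstream of its 5′ end and 38 downstream of its 3′ end. The median position was 19 bp downstream of the 5′ end (quartiles 2 and 44 bp), in genes with a median length of 72 bp. For the 253 peaks with 1 tRNA gene in reach that were not shoulders, 73.5% had the summit inside, 20.2% upstream and 6.32% downstream, with a median of 18 bp. Of the summits inside the gene in that set, 73.1% were nearer its 5′ end than its 3′ end. Most deposited peaks share a width of 364 bp (2624 of the 2911 nuclear peaks), and DNA was sheared to 200 to 800 bp, per the labels, so single positions are less exact than this median.

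**Figure D3:**
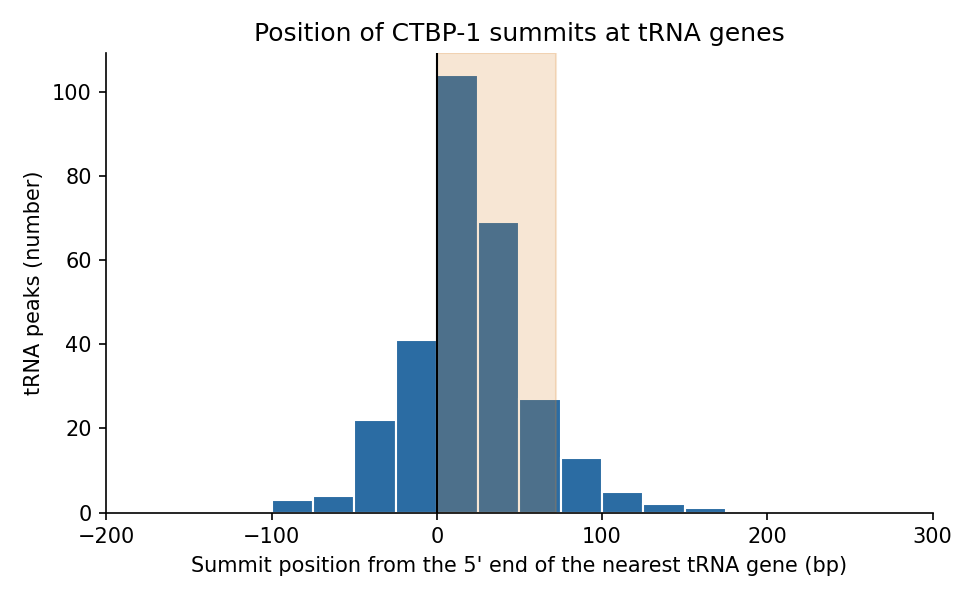
Bars count tRNA peaks, shoulders left out, by the position of the summit from the 5′ end of the nearest tRNA gene in 25-bp bins, with the median gene length shaded. The tallest bin, 0 to 25 bp into the gene, holds 104 peaks, and the next, 25 to 50 bp, holds 69.

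The letters around the summits were those of tRNA genes. This follows from the rule, since it took peaks at tRNA genes and most tRNA genes hold a B box, 587 of 612. A B box lay within 75 bp of the summit on either strand in 242 of 309 tRNA peaks, 78.3%, and in 6.15% of the other nuclear peaks. Of the 280 tRNA genes without a summit, 95% held it within 75 bp of the gene's middle. That window is not centred on a summit, so this share cannot be ranked against that of the tRNA peaks. Counted by gene, 322 of the 587 tRNA genes with a B box had a summit, and 10 of the 25 without it. The intervals of these shares overlap (50.8 to 58.8% and 23.4 to 59.3%), so the B box did not clearly tell genes with a summit from those without. An A box, searched by its published consensus, was found at 20.1% of tRNA peaks, 4.11% of other peaks and 25.7% of tRNA genes without a summit. The windows were placed as for the B box. The pattern searched had a fixed spacing, so a gene without a match is not shown to lack an A box. The share of G and C within 75 bp of the summit had a median of 47.7% at tRNA peaks and 46.4% at the others.

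What did differ between tRNA genes with and without a summit was a GA repeat upstream of the gene. This is the 6-letter run GAGAGA on either strand, so TCTCTC on the other, in the 150 bp before the 5′ end, a window chosen after the values were seen. It was present at 102 of 332 tRNA genes with a summit, 30.7% (26.0 to 35.9%), and at 29 of 280 without, 10.4% (7.31 to 14.5%). Read the other way, 102 of the 131 tRNA genes with the repeat had a summit, 77.9% (70.0 to 84.1%), against 230 of 481 without it, 47.8% (43.4 to 52.3%). These intervals do not overlap, but they treat genes as independent, and close genes can share a summit and overlapping upstream stretches. On X the shares were 87.9% (51 of 58) and 52.8% (115 of 218), and on the autosomes 69.9% (51 of 73) and 43.7% (115 of 263).

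The order was the same in each replicate's own list. This is not a separate check, since the series-level list draws on both replicates and the window was chosen after its values were seen. In that of replicate 1, 58.0% of tRNA genes with the repeat had a summit and 29.3% of those without. In that of replicate 2 the shares were 61.8% and 32.6%. The series-level signal moved the same way, with a median of 130 (quartiles 99.6 and 168) at genes with a summit and the repeat and 99.8 (quartiles 82.5 and 126) at genes with a summit and no repeat. The repeat was most common 51 to 75 bp upstream, in 13.3% of tRNA genes with a summit and 2.50% of those without. The summit itself did not lie closer to it, with median positions of 18 bp into the gene where the repeat was present and 17.5 bp where it was absent. Both strands contributed: TCTCTC on the strand of the tRNA was found at 19.3% of genes with a summit and GAGAGA at 13.6%.

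**Figure D4:**
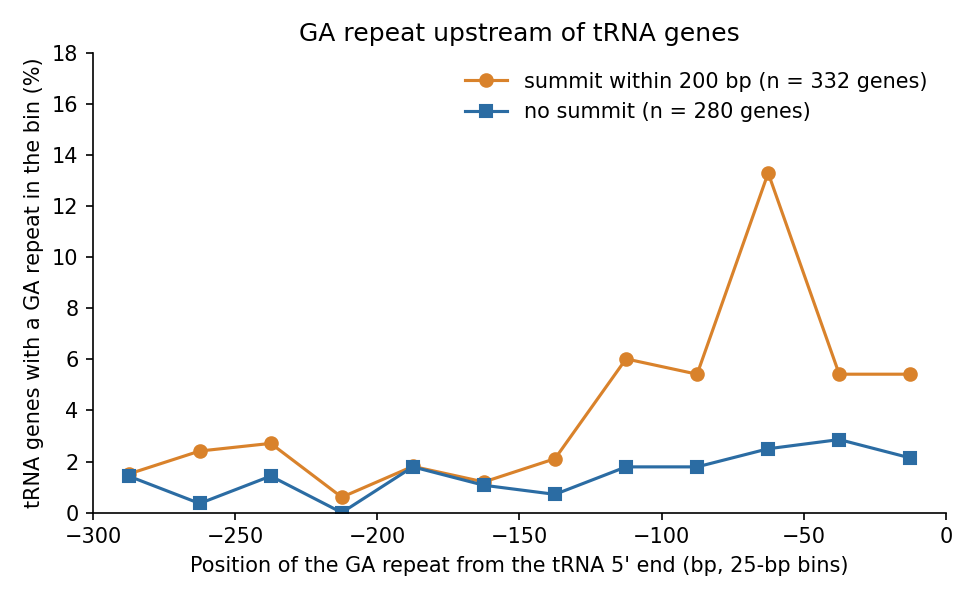
Lines give the percent of tRNA genes with a GA repeat on either strand in each 25-bp bin of the 300 bp before the 5′ end, for the 332 genes with a summit (orange circles) and the 280 without (blue squares). The largest gap is in the bin 51 to 75 bp upstream, 13.3% against 2.50%, and beyond 150 bp both lines stay under 3%.

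The repeat is not particular to tRNA genes among CTBP-1 sites. Within 75 bp of the summit it was found at 33.0% of the other nuclear peaks and at 17.2% of the tRNA peaks. At tRNA peaks much of that window is the tRNA gene itself, so these shares cannot be ranked. Within 150 bp of the summit 34.0% of tRNA peaks held it, and no share of the other peaks is given here at that distance. In the 150 bp upstream of protein-coding genes it was present at 21.4% of the 509 with a summit within 200 bp of the 5′ end and 12.5% of the 19464 without. A match is only a run of letters, and no factor binding it was measured.

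Identical tRNA genes allow a look at the flanks with the gene held constant. The 612 genes have 200 distinct sequences, and 57 of these are carried by 2 or more genes, 469 genes in all. In 46 of the 57 sets some copies had a summit and others had none, in 6 all copies had, and in 5 none had. The 29 identical tRNA-Gly genes with anticodon TCC had a summit at 18, the 25 tRNA-Lys genes with CTT at 18, and the 24 tRNA-Pro genes with TGG at 17. Within the tRNA-Gly set the signals at genes with a summit ran from 71.9 to 376, and within the tRNA-Pro set from 60.3 to 313. Of the tRNA-Pro copies, 12 of 13 on X had a summit and 5 of 11 on the autosomes. For tRNA-Gly these counts were 9 of 11 and 9 of 18. For tRNA-Lys they were 7 of 10 and 11 of 15, with the autosomes slightly higher.

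In 41 of the sets some copies had the GA repeat upstream and others did not. In these, 85 of 105 copies with the repeat had a summit, 81.0%, and 168 of 309 without it, 54.4%. Each copy was counted, although close copies can share a summit and overlapping upstream stretches. F49D11.t1 and F49D11.t2, for example, lie 98 bp apart, both have the repeat, and were reached by the same peak. The share was higher with the repeat in 31 sets, higher without it in 6 and equal in 4. The tRNA-Pro set is among the 6, with a summit at 5 of 8 copies with the repeat and 12 of 16 without. In the tRNA-Gly set the counts were 3 of 3 and 15 of 26, and in the tRNA-Lys set 6 of 6 and 12 of 19.

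A pair of these tRNA-Pro copies, the strongest and one without a summit, shows the flanks of an identical gene. The pair does not stand for the set, since W09D6.t2 has no repeat and a signal of 200. Their shared gene is the sequence given above for W09D6.t2. F46G11.t2, chrX:5801211-5801282 on the minus strand, lies outside protein-coding genes. The peak in its reach had a series-level signal of 313, and 159 and 146 in the replicates. Its summit lay 63 bp upstream of F46G11.t2, within the stretch printed below. The tRNA-Pro gene F46G11.t1 was in reach of the same summit, so the signal cannot be assigned to F46G11.t2 alone. R11G10.t2, chrV:13507203-13507274 on the minus strand, lies in an intron of avr-15, a glutamate-gated chloride channel subunit gene. It had no thresholded summit, and its ranked peaks had signals of 8.31, 13.0 and 21.1. The 120 bp before each gene follow, up to the base next to the 5′ end, with the GA repeat in capitals where there is one.
F46G11.t2, upstream, chrX:5801283-5801402: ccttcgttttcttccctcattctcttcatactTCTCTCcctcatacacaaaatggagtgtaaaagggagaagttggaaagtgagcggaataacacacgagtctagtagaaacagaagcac
R11G10.t2, upstream, chrV:13507275-13507394: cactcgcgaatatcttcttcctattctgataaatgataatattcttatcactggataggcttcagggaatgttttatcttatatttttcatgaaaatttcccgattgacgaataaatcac

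Genes with many identical copies had summits more often than those with 1. The share was 37.1% (29.6 to 45.4%) for the 140 genes whose sequence occurs once in the genome, 49.0% for those with 2 to 9 copies and 64.3% (58.9 to 69.3%) for the 319 with 10 or more. The order was the same on X (40%, 54.5% and 69.7%) and on the autosomes (35.3%, 44.8% and 59.1%). It was also the same in both replicates for the ends of the range, with 23.6% and 40.8% in replicate 1 and 25% and 45.8% in replicate 2. Short reads that fall wholly inside a gene with identical copies cannot be placed, and how such reads were treated is not given in the sources used here. Flanks distinguish most copies: the sequence with 20 bp on either side recurred for 8 genes only, and none of these 8 had a summit. Split at 1 copy, the GA repeat went with a higher share on both sides. Among genes with 2 or more copies the share with a summit was 90.0% with the repeat and 57.9% without on X, and 74.6% and 47.9% on the autosomes. Among genes with 1 copy it was 75% (6 of 8) and 34.0% on X, and 50% (7 of 14) and 32.4% on the autosomes. For 1 copy the intervals overlap, on the autosomes widely (26.8 to 73.2% and 22.7 to 43.9%).

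The 43 sets of identical genes with copies on both X and the autosomes compare the chromosomes for the same tRNA. In these sets 124 of 185 copies on X had a summit, 67.0%, and 123 of 223 autosomal copies, 55.2%. The share was higher on X in 25 sets, higher on the autosomes in 12 and equal in 6.

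Nearly every kind of tRNA gene was represented. Of the 21 tRNA products named for these genes in RefSeq, 20 had at least 1 gene with a summit, the exception being the lone selenocysteine tRNA gene. The anticodon was read from the sequence by a cloverleaf fit in 597 genes, and 43 of 46 anticodons had a summit. The highest shares were 70.7% for tRNA-Glu (29 of 41), 70.4% for tRNA-Asp (19 of 27), 69.2% for tRNA-Cys (9 of 13) and 67.6% for tRNA-Ala (23 of 34). The lowest were 16.7% for tRNA-Trp (2 of 12), 31.6% for tRNA-Tyr (6 of 19), 35.0% for tRNA-His (7 of 20) and 37.9% for tRNA-Ile (11 of 29). The intervals are wide and overlap for most neighbours in this order. That of tRNA-Glu (55.5 to 82.4%) does not overlap those of tRNA-Trp (4.70 to 44.8%) and tRNA-Tyr (15.4 to 54.0%), but these were picked as the top and bottom of an ordered list of products. In each replicate's own list tRNA-Trp had 3 of 12 and tRNA-Tyr 4 of 19, and tRNA-Glu had 23 and 22 of 41. Of all tRNA genes, 35.5% had a summit in the list of replicate 1 and 38.9% in that of replicate 2. The last place of tRNA-Trp was not kept there. tRNA-Tyr was lower in both lists. tRNA-Phe was also lower in replicate 1, with 3 of 14. In replicate 2 so were tRNA-Asn and tRNA-His, with 4 of 20 each, and tRNA-Ile, with 7 of 29.

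**Figure D5:**
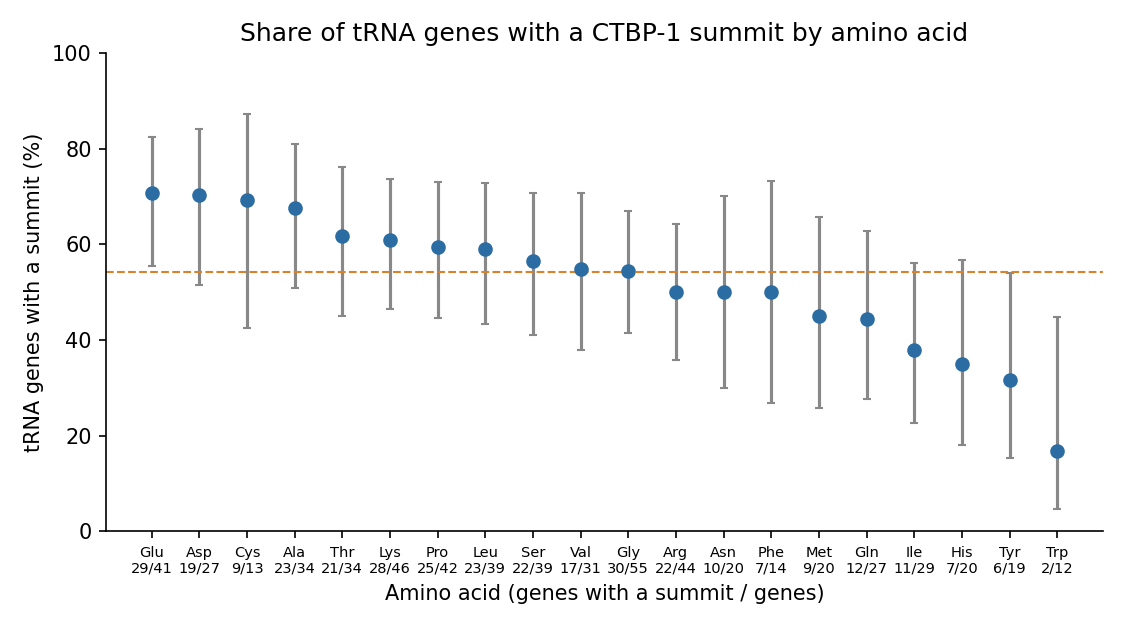
Points give the percent of tRNA genes with a summit for each amino acid, with 95% Wilson intervals and the counts under each name, and the dashed line marks the 54.2% of all tRNA genes. Shares fall from 70.7% for tRNA-Glu to 16.7% for tRNA-Trp, and most intervals cross the line.

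Anticodons of the same amino acid could differ. Of the tRNA-Glu genes, 14 of 17 with anticodon TTC had a summit and 15 of 24 with CTC. Of the tRNA-Arg genes it was 14 of 19 with ACG and 3 of 10 with TCG. The X copies did not always lead. For tRNA-Glu CTC 7 of 15 genes on X had a summit and 8 of 9 on the autosomes, and for tRNA-Arg TCG 0 of 7 on X and 3 of 3 on the autosomes. These anticodons were picked after their values were seen, and the groups are small. All 5 genes named rte, each a tRNA-Glu gene with CTC, had a summit in reach, with signals of 183 at rte-1, 99.6 at rte-2, 91.0 at rte-3 and 85.5 at rte-4. The summit in reach of rte-5, with 167, lay 153 bp away and inside the tRNA-Ser gene F02D10.t2.

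The tRNA-Trp genes are well known from worm genetics, since alleles of several, the sup loci, suppress amber nonsense mutations. Of the 12 genes, 10 share 1 sequence. Among these 10, sup-5 and sup-7 had a thresholded summit and the other 8 had none. The gene sup-5, chrIII:8678497-8678568, in an intron of the flightless homologue fli-1, had a series-level signal of 181, and 77.2 and 110 in the replicates. The gene sup-7, chrX:6371378-6371449, in an intron of C03B1.2, had 159, 90.6 and 69.6. In both replicates these values were above those of every other copy of the set. The next, sup-28, had a ranked signal of 63.5 with 45.7 and 23.0 in the replicates, and rtw-6 had 58.8 with 39.2 and 24.3. The gene sup-33 had 6.80, sup-29 had only a ranked peak of 28.0 in replicate 1, and no ranked list held a summit at sup-21 or sup-24.

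The 120 bp before 4 of these identical genes are given because the genes differ in signal and not in sequence. Capitals mark the GA repeat, on either strand, where there is one.
sup-5, upstream, chrIII:8678569-8678688, minus strand: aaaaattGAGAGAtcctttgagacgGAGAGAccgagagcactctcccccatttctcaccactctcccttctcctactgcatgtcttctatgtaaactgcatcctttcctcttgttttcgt
sup-7, upstream, chrX:6371258-6371377, plus strand: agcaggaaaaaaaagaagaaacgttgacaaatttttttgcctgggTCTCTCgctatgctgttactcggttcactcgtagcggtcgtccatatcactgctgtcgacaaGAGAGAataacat
sup-21, upstream, chrX:8877220-8877339, plus strand: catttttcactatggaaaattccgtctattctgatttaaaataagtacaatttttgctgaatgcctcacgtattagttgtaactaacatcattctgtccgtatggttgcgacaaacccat
sup-24, upstream, chrIV:15289583-15289702, plus strand: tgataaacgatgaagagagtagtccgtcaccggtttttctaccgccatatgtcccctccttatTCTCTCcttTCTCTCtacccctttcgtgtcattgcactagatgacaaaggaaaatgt
Both genes with a summit hold the repeat and sup-21 holds none. The gene sup-24 holds it and had no ranked summit, so the repeat did not separate this set.

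A tRNA-Trp gene of another sequence, rtw-5 on X, was listed differently by the replicates and by the series as a whole. It had a summit in the thresholded list of each replicate, with signals of 63.0 and 58.3, and no ranked summit within 200 bp in the series-level list. Counting it would make 3 of 12 tRNA-Trp genes. Of the tRNA genes with a summit in both replicates' lists, 168 of 173 also had a series-level summit.

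tRNA genes inside and outside host genes had summits about equally often. An intron of a protein-coding gene holds 283 of the 612 tRNA genes, and 150 of these had a summit, 53.0% (47.2 to 58.7%). Of the 322 tRNA genes outside protein-coding genes, 177 had a summit, 55.0% (49.5 to 60.3%). The shares were 62.1% and 58.9% on X and 48.4% and 50% on the autosomes. Intronic tRNA genes on the strand opposite to the host had a summit in 57.7% of 123 cases and those on the same strand in 49.4% of 160, with overlapping intervals. Counted by peaks, the nearest tRNA gene lay in a host gene for 150 of 309, 48.5%. This was 38.5% on X and 57.8% on the autosomes, where introns hold 188 of 336 tRNA genes, against 95 of 276 on X.

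Whether closely spaced tRNA genes had summits more often depended on the distance allowed. With another tRNA gene within 1000 bp, 141 of 236 genes had a summit, 59.7% (53.4 to 65.8%), against 191 of 376 without, 50.8% (45.8 to 55.8%). On the autosomes the shares were 60.4% (50.6 to 69.4%) and 44.7% (38.5 to 51.1%), and on X 59.3% and 61.0%. The autosomal intervals overlap slightly, and the difference between X and the autosomes was not tested. With only summits inside the gene counted, the order turned, at 24.6% (19.5 to 30.4%) with a neighbour and 37.5% (32.8 to 42.5%) without. These shares were 24.4% and 48.2% on X and 24.8% and 31.1% on the autosomes. Within 200 bp a gene can be reached by its neighbour's summit as well as its own, and 40 of the 309 peaks had 2 tRNA genes in reach. Of these pairs 23 were divergent, 10 in tandem and 7 convergent, and 28 were of the same product. The median signal of peaks with 2 genes in reach was 106 and that of peaks with 1 was 102.

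The densest run of tRNA genes, 8 genes of F22F1 between chrX:8152546-8156707, had a summit in reach of every gene. It holds tRNA genes for Asp, Ser, Met and Ile, and the largest signal in reach of each ran from 36.9 at F22F1.t5 to 91.3 at F22F1.t4, so none was among the strongest. At F22F1.t9 the value of 86.6 came from a summit 183 bp away, nearer to F22F1.t8. At F22F1.t2 the value of 81.4 came from a summit 172 bp away, nearer to F22F1.t3. The summit at F22F1.t5 is a shoulder of a stronger peak, and that gene had no other in reach. The densest autosomal run, 4 identical tRNA-Gly genes of C12C8 on I, had a summit of signal 95.1 in reach of the divergent pair C12C8.t5 and C12C8.t2. The other pair, C12C8.t4 and C12C8.t3 in an intron of cbl-1, had a ranked peak of 59.9 that did not pass the threshold.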

How the data were processed

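Peak lists of ChIP-seq against GFP in 2 replicates were deposited on build ce11, per the labels. The aligner and peak caller are not given in the sources used, and the depth behind a peak is unknown. Signal values were set by the authors and deposited peak by peak. The score of the deposited ranked lists is the -log10 of the global IDR, and the limit met by all thresholded peaks was a global IDR of 0.01. Per-input values, 16 columns of the ranked lists, were left out.

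Coordinates count from 1. Genes came from Ensembl release 115 on WBcel235, which has the coordinates of ce11, and tRNA products from RefSeq, matched for 612 of 612 genes. A summit counted for a gene inside it or within 200 bp. Shares carry 95% Wilson intervals (statsmodels 0.14.6) and correlations came from scipy 1.17.1. The search was tested on simulated peaks. Alternatives changed the list, distance, window or replicate. The tRNA genes, motifs and named genes were chosen with earlier results of these data known. Named are the strongest, weakest and most different peaks, genes with a genetic name, the densest runs and the largest identical sets.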

Additional observations from a re-analysis of the deposited data

How the results depend on the processing

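No paired analysis was possible because both replicates belong to 1 group. Of 91 recomputed values 58 stayed within their interval, or within 1.5 times for a count. From 1 replicate's list alone, tRNA peaks numbered 194 to 221, and summits reached 35.5 to 38.9% of tRNA genes, 40.2 to 42.4% on X, 31.5 to 36.0% on the autosomes, 36.0 to 42.4% of clustered and 39.0 to 43.0% of multicopy genes, with a median signal of 62.3 to 64.8. With the summit inside the gene only, there were 199 peaks of median signal 107, and the same shares were 32.5%, 36.6%, 29.2%, 24.6% and 35.4%. Clustered genes were then below the others (37.5%), the reverse of the order within 200 bp. With the stronger nuclear peaks by median signal they were 40.5%, 46.0%, 36.0%, 42.8% and 45.1%, the median signal was 123, and 67.4% of tRNA peaks were in both replicates. Within 500 bp, 67.8% of clustered genes had a summit. The median signal was 105 in the conservative list and, added after seeing the data, 107 without shoulder peaks. It was counted as moved beyond 1.75, the SD of the replicate medians. Within 150 bp of the summit, 93.5% of tRNA peaks held a B box and 34.0% a GA repeat. Of the 8 genes identical with 20 bp on either side, 0% had a summit (0 to 32.4%), against 55.0% of the rest. This order is the reverse of that by copies of the gene alone, but it rests on 8 genes. How reads from such copies were placed is not known. X was above the autosomes as a whole in each setting, but the settings share most of their peaks. The intervals of X and the autosomes overlap in all settings except within 500 bp (59.8 to 70.9% and 45.3 to 55.9%). III alone was above X in the series-level list and in both replicates' lists. Read depth is unknown, and a gene without a summit is not shown to lack CTBP-1.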
